A study of Mus musculus with 4 samples.

Results

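Chemokine receptors and the sphingosine-1-phosphate receptor S1pr1, which guide white blood cells into and out of blood and tissue, were followed in mouse blood during acute pancreatitis. The group was given by name: Ccr1, Ccr2, Ccr7, Cx3cr1, Cxcr2, Cxcr3, Cxcr4, Cxcr5 and S1pr1. Of these 9 genes, 8 were found by symbol among the 16152 gene names of the count matrices. Ccr2 was not analysed here. The levels of the 8 genes are described in 5 lineages: T cells, B cells, natural killer (NK) cells, classical monocytes and nonclassical monocytes.

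Acute pancreatitis (AP) was induced in wild type C57BL/6J mice, 6 to 8 weeks old, by 7 intraperitoneal injections of cerulein, a secretagogue analogue that overstimulates the acinar cells of the pancreas. The series text gives the dose as 60 mg/kg. Peripheral blood mononuclear cells, isolated on a density gradient, were sequenced with droplet 5′ chemistry, 1 library each from control mice (0 h) and from mice at 12, 24 and 96 h of AP. The labels give 96 h for the last library where the series text gives 168 h. The number of animals behind each library is not given in the sources used here, and no vehicle-injected group is labelled. With 1 library per time there was no replicate check and no test between times. All intervals below are 95% and cover counting error only. Those of levels and ratios take UMIs as independent and leave out variation between cells and between animals. A difference outside them is thus a difference between libraries as counted, and for genes with few positive cells it may rest on which cells were sampled.

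All 8 genes encode receptors coupled to G proteins. Chemokine receptors steer cells along gradients of chemokines and are internalised after binding them, whereas S1PR1 senses sphingosine-1-phosphate, a lipid that is abundant in blood and scarce inside lymphoid tissue, and is needed for lymphocytes to leave thymus and lymph nodes. CXCR4 binds CXCL12 and holds cells in bone marrow and at other CXCL12-rich sites. CCR7 and CXCR5 direct lymphocytes into lymph nodes and B cell follicles, CXCR3 directs activated T and NK cells to interferon-induced chemokines, and CCR1, CXCR2 and CX3CR1 act mainly in myeloid cells.

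The libraries held 14569, 11663, 12588 and 14560 cells at 0, 12, 24 and 96 h, of which 11403, 10457, 10930 and 12971 were used. Lineages were assigned from the number of fixed marker genes detected in a cell, none of them a receptor described here, and 4.81 to 6.77% of the used cells of a library reached no gate. The barcode lists of 12 and 24 h are identical (11663 barcodes) although their matrices differ in size, the control list names 4340 of 14569 columns, and the other pairs of lists share 10 to 51 barcodes. No cell of 1 library had the same counts as a cell of another (0 for every pair). Of the gene names, 28 start with RT1- and 0 with H2-, the prefixes of histocompatibility genes in rat and mouse respectively. These names are at odds with the mouse strain given by the labels. The reference behind the counts is thus in doubt, and genome positions are not given.

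The lineages shared some receptors and differed in their levels. Levels are given as CPM (UMIs scaled to a lineage total of 1e+06), and those of different genes are not compared because no gene length was applied. In the control library Cxcr4 was detected in all 5 lineages, in the order B cells (1010 CPM), nonclassical monocytes (517 CPM), T cells (478 CPM), NK cells (226 CPM) and classical monocytes (168 CPM), with no overlap of neighbouring intervals. S1pr1 stood at 443 CPM in T cells, 177 CPM in B cells and 33.1 CPM in NK cells. In classical and nonclassical monocytes it stood at 2.48% and 2.5% of the T cell level, while the T cell markers there stood at 1.0% and 1.53% of their T cell level. Ccr7 (12.1 CPM) was highest in T cells, Cxcr5 (2.85 CPM) in B cells and Cxcr3 (19.3 CPM) in NK cells. Ccr1 (56.8 CPM) was highest in classical monocytes, and Cx3cr1 (70.4 CPM) in nonclassical monocytes. Cxcr2, the receptor of neutrophil-attracting chemokines, had only 6 UMIs in all used control cells.

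**Figure D1:**
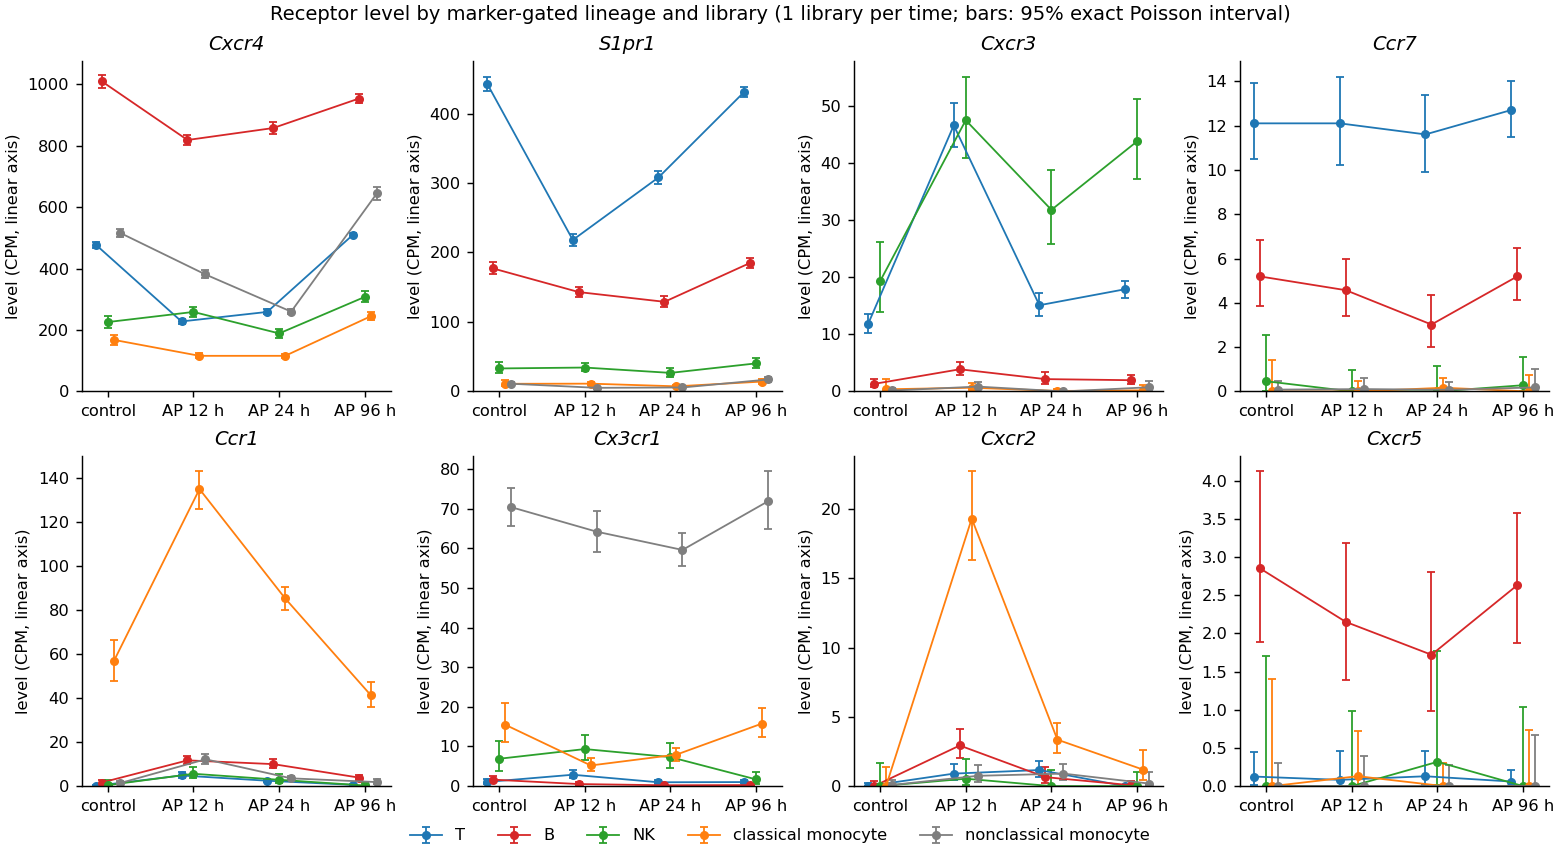
Level of each of the 8 receptors (CPM, linear axis from 0) in the control library and at 12, 24 and 96 h of AP, for the 5 marker-gated lineages; points are single libraries and bars are 95% exact Poisson intervals. In T cells S1pr1 stands at 443, 218, 308 and 431 CPM while Ccr7 lies between 11.6 and 12.7 CPM.

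A receptor was compared with control in a lineage where it reached 20 CPM in either library and 20 UMIs over both, and was called higher or lower at a ratio of at least 1.5-fold. Of the 40 pairs of receptor and lineage, 12 reached these minima at 12 h, and 11 each at 24 and 96 h. At 12 h 3 pairs were higher, 25.0% of those measured, against 7.5% of all gene and lineage pairs. These were Cxcr3 in T cells, Cxcr3 in NK cells and Ccr1 in the classical gate. In the same library 2 pairs were lower, 16.7% against 5.01% of all pairs, and both were in T cells: Cxcr4 and S1pr1. Most 12 h cells of the classical gate lay in a cluster with more neutrophil than classical markers among its leading genes. This cluster held 0 control cells of the gate. The 12 h values of the gate are therefore given as a description only, with levels by cluster beside the receptor levels. A difference from control in them is not read as a change within 1 cell type. Without this gate 10 pairs were measured at 12 h, with 2 higher and 2 lower, where 4.04% of all pairs were higher and 2.24% lower. At 24 h 2 pairs were higher (18.2% against 3.8%), Ccr1 in classical monocytes and Cxcr3 in NK cells, and 2 were lower (18.2% against 4.64%), Cxcr4 in T cells and in nonclassical monocytes. At 96 h Cxcr3 in NK cells was the 1 pair called higher (9.09% against 1.82%) and 0 pairs were lower, where 1.44% of all pairs were. The median ratio of the measured pairs was -0.22, -0.31 and 0.1 (log2) at 12, 24 and 96 h, against 0.06, -0.04 and 0.03 over all pairs. The 3 comparisons share the control library, and time and library cannot be told apart.

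**Figure D2:**
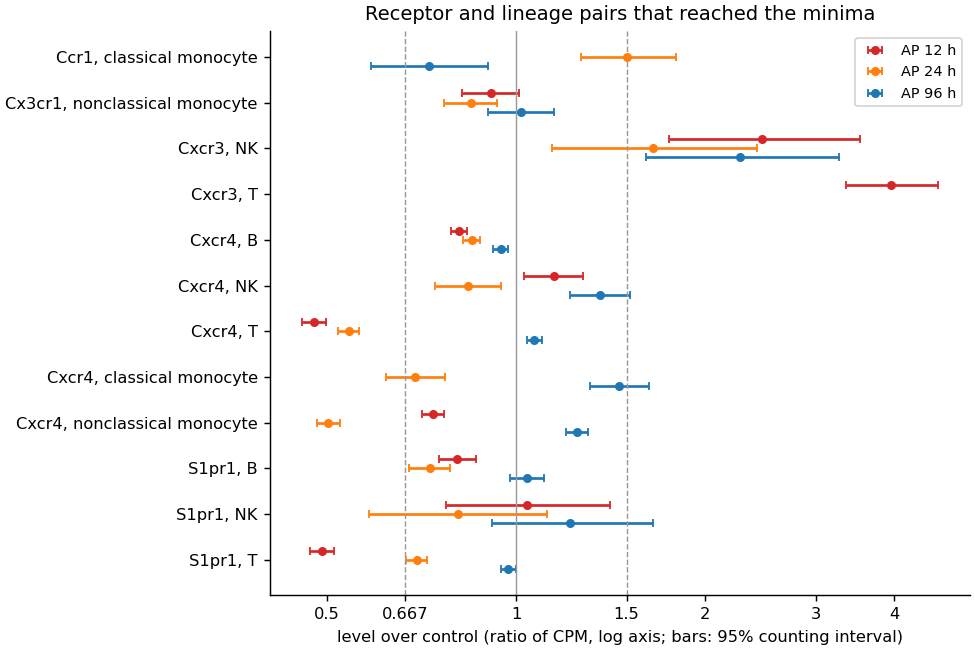
Ratio of the level in each AP library to control (log axis) for the receptor and lineage pairs that reached the minima, with 95% counting intervals; dashed lines mark 1.5-fold in either direction. Cxcr4 and S1pr1 in T cells lie below 0.5 at 12 h and at 1.07 and 0.972 at 96 h. Ccr1 in classical monocytes lies at 1.5 at 24 h and 0.728 at 96 h, and their 12 h ratios are not drawn.

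S1pr1 and Cxcr4, the egress and retention receptors, were both at less than 0.5 of the control level in the T cells of the 12 h library and near it at 96 h. S1pr1 stood at 443 (433 to 453) CPM in control T cells and at 218 (209 to 226), 308 (299 to 317) and 431 (424 to 438) CPM in the AP libraries in order of time. The 12 h and 24 h intervals overlap with no other library's, and the ratios to control were 0.491 (0.47 to 0.514), 0.695 (0.669 to 0.721) and 0.972 (0.945 to 1.0). Cxcr4 stood at 478 (467 to 488), 228 (220 to 237), 259 (251 to 267) and 510 (502 to 517) CPM, or 0.478 (0.457 to 0.499), 0.542 (0.521 to 0.563) and 1.07 (1.04 to 1.1) of control. Among all genes measured in T cells, 1.78% were lower by 1.5-fold or more at 12 h, 3.63% at 24 h and 0.813% at 96 h. Median-of-ratios scaling, which moves all T cell ratios by -0.12 (log2) at 12 h and by 0.12 at 24 h, gave 0.453 for S1pr1 and 0.441 for Cxcr4 at 12 h.

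The T cells lay mainly in clusters 13, 4 and 5 of an unsupervised clustering made without the receptors, and S1pr1 and Cxcr4 were lower at 12 h in each. S1pr1 was 521, 359 and 484 CPM in these clusters in control and 275, 195 and 249 CPM at 12 h, and Cxcr4 was 509, 473 and 426 CPM in control and 197, 247 and 227 CPM at 12 h. Cluster 20 held 2.05% of control T cells and 10.1% at 12 h, and 98.8% of its gated cells were T cells. Its 10 leading genes held 1 NK marker, Ctsw, and 0 T cell markers. The same holds for cluster 4, which also had Cd8a and Cd8b, and Ctsw is also among the cytotoxic T cell genes. Without cluster 20 and the neutrophil-led cluster 18, which held 0 to 1.41% of T cells, the 12 h ratios were 0.51 for S1pr1 and 0.472 for Cxcr4.

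The lower levels were seen in each of the T cell subsets described. Cd4+ and Cd8+ cells made up only part of the T cells, 215 and 1308 of 3018 in control. The other 1495 had both or neither of Cd4 and Cd8 detected. Their 12 h ratios were 0.504 (0.47 to 0.54) for S1pr1 and 0.434 (0.402 to 0.467) for Cxcr4. At 12 h S1pr1 was 0.523 (0.455 to 0.601) of control in Cd4+ cells, 0.504 (0.471 to 0.538) in Cd8+ cells and 0.469 (0.401 to 0.547) in cells with Foxp3, the transcription factor of regulatory T cells. Cxcr4 was 0.458 (0.393 to 0.532), 0.511 (0.482 to 0.541) and 0.491 (0.414 to 0.58) in the same subsets. Among all genes measured at 12 h, 9.07% were higher and 6.41% lower in Cd4+ cells, 6.35% and 1.62% in Cd8+ cells, and 9.75% and 7.47% in Foxp3+ cells. T cells with at least 4 of 9 cytotoxic genes, which made up 270 of 3018 T cells in control and 436 of 1988 at 12 h, had S1pr1 at 0.543 (0.484 to 0.609) of control and the other T cells at 0.505 (0.48 to 0.53), where 3.39% and 1.68% of measured genes were lower. The subsets parted at 24 h: Cxcr4 in cytotoxic T cells was 0.746 (0.671 to 0.83) of control and in the others 0.516 (0.495 to 0.538). Cd8+ and cytotoxic T cells had the lowest S1pr1 in the control library (373 and 333 CPM), while Cd4+ and Foxp3+ cells (488 and 495 CPM) had overlapping intervals. The median mitochondrial share of T cells was 7.36, 6.15, 6.68 and 6.25% at 0, 12, 24 and 96 h, and among cells with at most 5% the 12 h ratios were 0.388 for S1pr1 and 0.405 for Cxcr4.

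**Figure D3:**
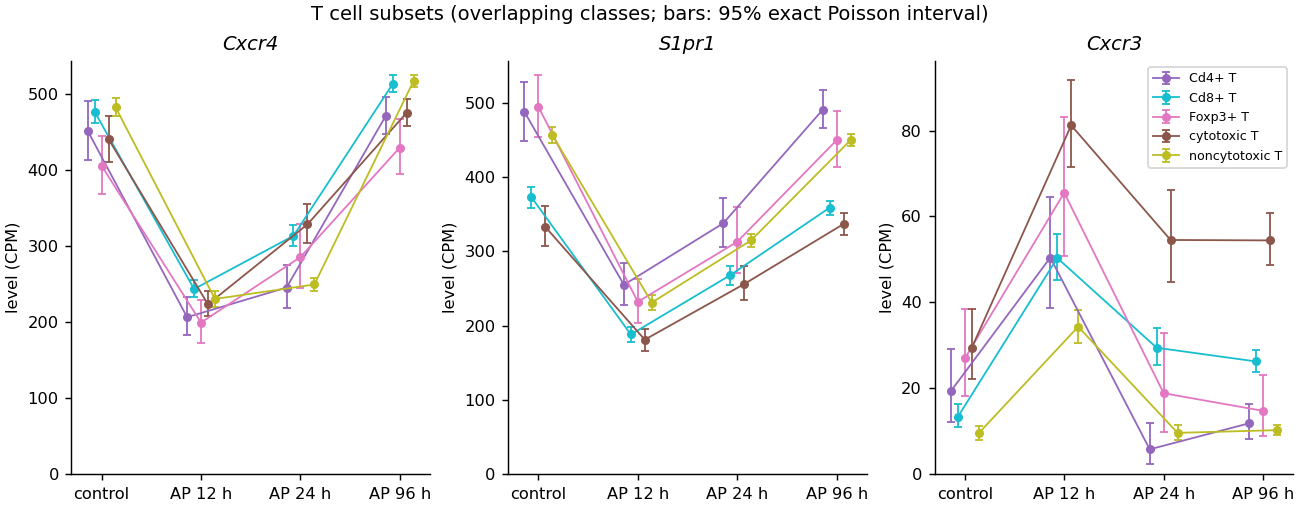
Level (CPM) of Cxcr4, S1pr1 and Cxcr3 in 5 overlapping T cell subsets by library, with 95% exact Poisson intervals. Cxcr4 and S1pr1 are lowest at 12 h in each subset, and Cxcr3 is highest at 12 h in each, reaching 81.2 CPM in cytotoxic T cells.

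The difference was also visible cell by cell. To compare cells of unequal depth, each T cell was thinned to 2000 UMIs, which left out 20, 1, 7 and 13 cells at 0, 12, 24 and 96 h. The share of T cells with S1pr1 was then 57.1% (55.3 to 58.9), 35.0% (32.9 to 37.1), 44.7% (42.7 to 46.8) and 56.5% (55.1 to 57.8), while without thinning it was 85.5, 69.3, 83.5 and 88.6%. Cells with both S1pr1 and Cxcr4 made up 34.1% of control T cells, 13.5% at 12 h, 18.5% at 24 h and 35.7% at 96 h, and cells with neither 19.2, 41.0, 35.0 and 17.6%. The share with Cxcr4 alone lay between 20.3 and 25.9%. Where fewer cells have Cxcr4 and fewer have S1pr1, fewer have both and more have neither, even if the receptors vary independently. These shares thus do not show whether both receptors were lower in the same cells. Of T cells with Cxcr4, 59.0, 36.0, 47.7 and 58.0% also had S1pr1 in order of time, and of those without Cxcr4, 54.5, 34.4, 42.9 and 54.0% had it.

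**Figure D4:**
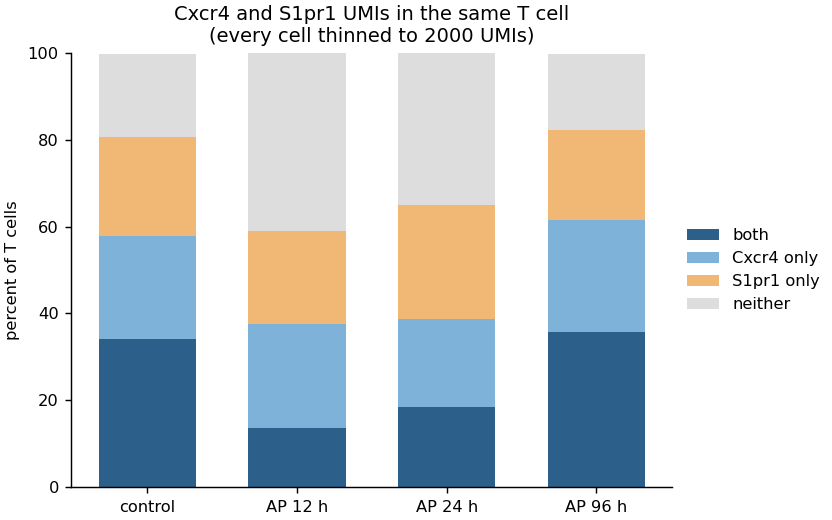
Percent of T cells with UMIs of both Cxcr4 and S1pr1, of 1 of them or of neither, each cell thinned to 2000 UMIs, for the 4 libraries. Cells with both make up 34.1, 13.5, 18.5 and 35.7% in order of time.

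The other lymphocytes differed from T cells in size or direction. In B cells Cxcr4 was 1010, 819, 858 and 954 CPM at 0, 12, 24 and 96 h and S1pr1 was 177, 143, 129 and 185 CPM. Neither passed 1.5-fold at any time. The B cell ratios at 12 h, 0.812 (0.789 to 0.835) for Cxcr4 and 0.807 (0.754 to 0.864) for S1pr1, lay below 1 and outside the T cell intervals. In NK cells, which use S1PR5 for egress, S1pr1 was 33.1, 34.4, 26.7 and 40.4 CPM, with a 12 h ratio of 1.04 (0.774 to 1.41). NK cell Cxcr4 was 226, 259, 189 and 308 CPM, the highest value at 96 h.

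Receptors for lymphoid organs gave few UMIs in these libraries. How well each gene was captured was not tested, so few UMIs need not mean a low level in the cells. Ccr7 in T cells was 12.1 (10.5 to 13.9), 12.1 (10.2 to 14.2), 11.6 (9.92 to 13.4) and 12.7 (11.5 to 14.0) CPM, and all 4 intervals overlap. It was below the 20 CPM minimum, and 6.1 to 7.31% of T cells had a UMI. In B cells Ccr7 was 5.19, 4.57, 3.02 and 5.19 CPM, and the 24 h ratio of 0.582 (0.353 to 0.94), from 28 against 51 UMIs, lay below 1. Cxcr5, the follicle-homing receptor, was found almost only in B cells, at 2.85 (1.89 to 4.12), 2.15 (1.39 to 3.18), 1.72 (0.986 to 2.8) and 2.63 (1.88 to 3.58) CPM from 16 to 40 UMIs, and each other lineage had at most 2 UMIs per library. At this depth no difference in Cxcr5 was detectable.

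Cxcr3, carried by activated T cells and NK cells, was higher at 12 h in both. In T cells it stood at 11.8 (10.2 to 13.6) CPM in control and at 46.6 (42.8 to 50.6), 15.1 (13.2 to 17.2) and 17.9 (16.4 to 19.3) CPM in the AP libraries, and the 12 h library stood far above the other 3. The 12 h ratio was 3.95 (3.35 to 4.69), where 5.2% of measured T cell genes were higher by 1.5-fold or more, and 3.43 without clusters 20 and 18. Cxcr3 is itself among the 10 leading genes of cluster 20. By cluster, Cxcr3 in T cells was 0.598, 9.66, 39.0 and 72.0 CPM in clusters 13, 4, 5 and 20 in control and 0.383, 25.5, 69.2 and 135 CPM at 12 h. In NK cells it stood at 19.3 (13.9 to 26.1), 47.5 (40.8 to 55.1), 31.8 (25.9 to 38.7) and 43.8 (37.2 to 51.3) CPM, with ratios of 2.46 (1.75 to 3.53), 1.65 (1.14 to 2.42) and 2.27 (1.61 to 3.27). The shares of NK genes called higher were 5.07, 5.3 and 3.57% at 12, 24 and 96 h. Cluster 6 held most NK cells of the first 3 libraries (61.1 to 68.9%) and 44.0% at 96 h. Cluster 12 held 27.3% in control and 52.0% at 96 h. Cxcr3 in NK cells is not given by cluster, so the NK ratios do not separate a different mix of clusters from a different level within them. The NK ratio at 24 h was 1.33 as a mean over cells and 1.49 without the mitochondrial filter, both under the threshold. After thinning, 1.83, 6.24, 2.24 and 2.22% of T cells and 2.11, 8.82, 5.61 and 7.03% of NK cells had Cxcr3. B cells, at a lower depth (median 2811 UMIs in control and 2970 at 12 h, against 5010 and 5629.5 in T cells), gave 0.034, 0.38, 0.0768 and 0.179%.

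The excess of Cxcr3 lay in different T cell subsets at different times. At 12 h it was higher in Cd4+ (2.61, 1.6 to 4.41), Foxp3+ (2.43, 1.56 to 3.88), Cd8+ (3.77, 3.01 to 4.76), cytotoxic (2.76, 2.05 to 3.77) and noncytotoxic T cells (3.61, 2.94 to 4.45), and of all measured genes 11.0% were higher in cytotoxic and 4.18% in noncytotoxic T cells. T cells with both or neither of Cd4 and Cd8 had the largest of these 12 h ratios, 4.39 (3.27 to 5.95). At 24 and 96 h they had 5.16 and 10.0 CPM against 8.93 in control, under the minimum. Control Cd4+ and Foxp3+ T cells held 23 and 30 Cxcr3 UMIs, each in 11 cells. At 24 and 96 h the Cxcr3 ratio was 2.2 (1.72 to 2.83) and 1.96 (1.58 to 2.47) in Cd8+ T cells. Cd4+ T cells then had 7 and 35 UMIs, 5.73 and 11.8 CPM against 19.3 in control, and Foxp3+ T cells 12 and 19 UMIs, 18.8 and 14.7 CPM against 26.9. Noncytotoxic T cells were at 1.01 (0.785 to 1.29) and 1.07 (0.872 to 1.33) of control, cytotoxic T cells at 1.86 (1.32 to 2.63) and 1.85 (1.38 to 2.52). At 12 h 25.0% of thinned T cells with Cxcr3 also had S1pr1, against 35.6% of those without, from 31 of 124 cells. Cxcr3 and Ccr7 were found together in 0 to 2 thinned T cells per library. Of the 55, 124, 51 and 121 thinned T cells with Cxcr3, 0.0, 1.61, 0.0 and 0.826% had Ccr7, against 2.34, 2.31, 2.34 and 2.76% of those without. These counts are too small to tell whether the 2 receptors lie in separate cells. Dendritic-gated cells, 31 to 47 per library and too few for a level, held 30, 35, 30 and 34 Cxcr3 UMIs, 0.638 to 0.968 per cell.

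Ccr1, a receptor of CCL3, CCL5 and related chemokines, was found mainly in the classical gate. Of the 12 h cells in this gate 83.5% lay in cluster 23, which held 0 of the control cells. Among the 10 leading genes of cluster 23 were 3 neutrophil markers (Il1r2, S100a8 and S100a9) and 1 classical marker (Hp), so it stays unnamed. Of its gated cells 91.3% were in the classical gate. Hp was detected in 94.3% and Il1r2 in 41.2% of its cells, against 76.9% and 4.76% in cluster 15 and 52.9% and 76.6% in the neutrophil-led cluster 18. S100a8 was detected in 9.73 to 99.5% of cells per cluster and S100a9 in 8.85 to 99.2%. Cluster 15 held 99.4% of the gate in control, 56.4% at 24 h and 97.8% at 96 h, and cluster 2, led by Acod1, Cxcl2 and Slc2a6, held 40.9% at 24 h.

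By cluster, Ccr1 stood at 57.3 (48.5 to 67.2) CPM in cluster 15 in control and at 134 (125 to 143) CPM in cluster 23 at 12 h. In cluster 15 it was 102 (94.5 to 110) CPM at 24 h and 41.5 (36.0 to 47.7) CPM at 96 h, while cluster 2 at 24 h had 56.2 (49.6 to 63.5) CPM. Within cluster 15 the 24 h library was thus highest and 96 h lowest, with no overlap of intervals. Over the whole gate Ccr1 was 56.8 (48.0 to 66.6), 135 (126 to 143), 85.3 (80.2 to 90.7) and 41.3 (35.9 to 47.3) CPM. The 24 h ratio to control was 1.5 (1.27 to 1.8), and that of the 96 h library 0.728 (0.587 to 0.904). The 24 h value lies at the threshold, and it was 1.49 as a mean over cells and 1.46 without clusters 23 and 18, both under it. In this lineage 6.14% of all measured genes were higher by 1.5-fold or more at 24 h. The share of gated cells with Ccr1 was 30.8, 73.2, 50.6 and 26.7% at median depths of 7777, 14436, 11727 and 9147 UMIs, and 10.4, 21.3, 15.6 and 7.64% after thinning.

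Ccr1 was also detected in lymphocytes. It stood at 1.63, 11.7, 10.0 and 3.88 CPM in B cells (a thinned share of 0.374, 1.87, 1.38 and 0.538%). T cells had 0.125, 4.83, 2.45 and 0.569 CPM. In B cells with 0 or 1 neutrophil markers Ccr1 was 1.63, 6.17, 7.74 and 3.89 CPM. In such T cells it was 0.125, 2.11, 0.593 and 0.541 CPM. Where the Ccr1 of lymphocytes came from was not tested. The neutrophil markers, with S100a8 and S100a9, summed to 19.4 CPM in control B cells and 5760, 2960 and 422 CPM at 12, 24 and 96 h, and to 730, 34600, 4610 and 1870 CPM in the classical gate. In the classical gate 8 of these markers were at 0 in control, Retnlg, Mmp9 and Lcn2 among them, and 1, Ltf, in each AP library. Neutrophil-gated cells had Ccr1 at 322 CPM at 12 h and 434 CPM at 24 h. Cells with 2 or more neutrophil markers made up 6.1% of the classical gate in control and 50.1% at 12 h, and without them the 24 h ratio was 1.53.

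Cxcr2 had 0 UMIs in the classical gate of the control library, with an upper interval limit of 1.4 CPM. The AP libraries had 19.3 (16.3 to 22.7), 3.35 (2.39 to 4.56) and 1.19 (0.435 to 2.58) CPM in this gate, and cluster 23 at 12 h had 20.7 (17.5 to 24.4) CPM. Of the 267 Cxcr2 UMIs at 12 h, 55.4% came from the classical gate, 12.7% from B cells and 3.37% from the 54 neutrophil-gated cells, which had 46.7 CPM. Within the 12 h classical gate Cxcr2 was 25.0 (20.4 to 30.2) CPM in cells with 2 or more neutrophil markers and 12.3 (8.84 to 16.6) CPM in the rest. Ccr1 did not show this split, at 136 (125 to 148) and 133 (121 to 145) CPM. The part of neutrophil RNA or of joined cells in these levels was not tested.

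Cx3cr1, the receptor that marks patrolling nonclassical monocytes, stood within 1.5-fold of control there at every time. It was 70.4 (65.7 to 75.3), 64.2 (59.2 to 69.5), 59.6 (55.6 to 63.9) and 71.9 (65.0 to 79.4) CPM in nonclassical monocytes, and the 24 h ratio of 0.847 (0.768 to 0.934) was the only 1 of 3 with an interval that leaves out 1. In the classical gate it was 15.5 (11.1 to 21.0), 5.21 (3.73 to 7.1), 7.95 (6.43 to 9.72) and 15.8 (12.5 to 19.7) CPM, under the 20 CPM minimum, with the 24 h interval below those of control and 96 h. Cluster 23 at 12 h had 3.14 (1.97 to 4.76) CPM. NK cells had 6.9, 9.35, 7.32 and 1.69 CPM.

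Along the monocyte range, taken as classical minus nonclassical markers detected in a cell, Ccr1 and Cx3cr1 ran in opposite directions in each library. From the most nonclassical to the most classical bin, control Ccr1 went from 0.64 to 84.0 CPM and Cx3cr1 from 73.6 to 9.54 CPM. At 12 h Ccr1 went from 7.68 to 142 CPM and Cx3cr1 from 66.4 to 1.7 CPM. Cells between the 2 gates, 422 in control and 758 at 12 h, had Ccr1 at 15.5 and 76.6 CPM, a ratio of 4.93 (3.48 to 7.21), where 14.1% of measured genes were higher and 5.61% lower by 1.5-fold or more. Different clusters held most of these cells, cluster 0 in control (58.3%) and cluster 1 at 12 h (65.7%).

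**Figure D5:**
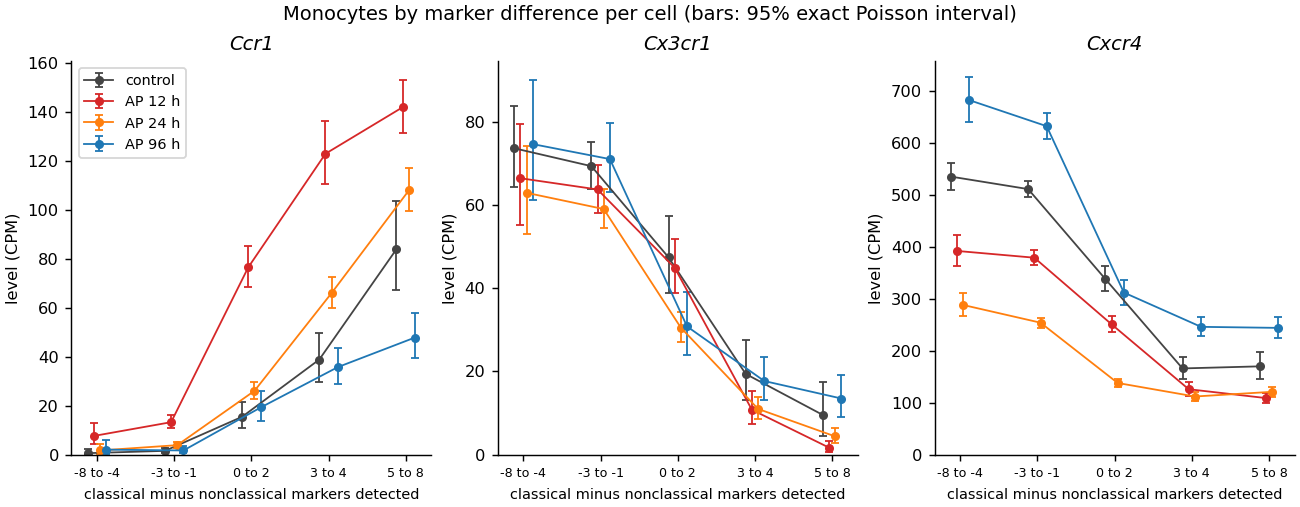
Level (CPM) of Ccr1, Cx3cr1 and Cxcr4 in monocytes binned by the number of classical minus nonclassical markers detected per cell, for the 4 libraries, with 95% exact Poisson intervals. The 12 h library lies highest for Ccr1 in each bin, and the 24 h library lies lowest for Cxcr4 in the 4 bins from -8 to 4.

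In nonclassical monocytes Cxcr4 was lowest at 24 h and highest at 96 h. It stood at 517 (504 to 530), 381 (369 to 394), 260 (252 to 269) and 645 (624 to 667) CPM, with no overlap between libraries. The ratios were 0.738 (0.708 to 0.769), 0.503 (0.483 to 0.525) and 1.25 (1.2 to 1.3), and 4.97% of measured genes were lower by 1.5-fold or more at 24 h. Within the nonclassical gate the level differed by cluster at 24 h, from 142 CPM in cluster 2 (630 cells) to 301 in cluster 0 (582 cells) and 368 in cluster 3 (1161 cells). In control 97.2% of the gate lay in cluster 0, at 535 CPM. Clusters 2 and 15 have 1 classical and 0 nonclassical markers among their leading genes, and without them the 24 h ratio was 0.65. In the classical gate Cxcr4 was 168, 116, 116 and 245 CPM, or 0.691 (0.621 to 0.771) of control in the 24 h library and 1.46 (1.31 to 1.63) in the 96 h library, and cluster 23 at 12 h had 111 (103 to 119) CPM. S1pr1 in nonclassical monocytes was 11.1, 5.2, 5.72 and 17.2 CPM, under the minimum.

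The related genes that follow are read against the share of all measured genes past 1.5-fold in each lineage. In T cells 5.2, 1.7 and 0.787% were higher at 12, 24 and 96 h and 1.78, 3.63 and 0.813% lower. In B cells the shares were 2.79, 2.05 and 0.849% higher and 1.97, 2.42 and 0.958% lower, and in NK cells 5.07, 5.3 and 3.57% higher and 2.41, 3.98 and 2.26% lower. In classical monocytes they were 6.14 and 2.39% higher and 8.27 and 2.01% lower at 24 and 96 h, and in nonclassical monocytes 3.19, 3.57 and 1.3% higher and 2.73, 4.97 and 1.06% lower.

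Among 15 other chemokine receptors, of which 12 have a row, 1 or 2 per lineage and time reached the minima. In T cells Ccr6, the CCL20 receptor, was 35.0 against 19.4 CPM at 12 h (1.81, 1.56 to 2.1), and Ccr9, the gut-homing receptor, was 11.9 and 14.9 CPM at 24 and 96 h against 25.9 in control (0.462, 0.386 to 0.55, and 0.574, 0.503 to 0.656). In monocytes Ccrl2, which binds chemerin, was 4.42-fold (2.91 to 7.04) higher in the classical gate at 24 h, from 23 and 459 UMIs, and 0.508 (0.458 to 0.562) of control in the nonclassical gate at 12 h. In B cells Ccr6 was the 1 receptor of this list past the minima and lay within 1.5-fold of control (1.08, 1.3 and 0.894).

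Of 11 other genes of sphingosine-1-phosphate sensing and handling, 10 have a row and 1 to 5 reached the minima. S1pr4 was higher at 12 h in B cells (141 against 83.2 CPM, 1.69, 1.56 to 1.85). In T cells S1pr4 was 171, 176, 143 and 183 CPM, within 1.5-fold of control at each time. S1pr5, the egress receptor of NK cells, was 51.9, 71.6, 70.7 and 39.0 CPM there, with ratios of 1.38 (1.1 to 1.73), 1.36 (1.08 to 1.72) and 0.752 (0.582 to 0.972).

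Egress and retention regulators were fixed as a list of 11, of which 10 have a row and 6 reached the minima in T cells. At 12 h 0 of 6 were called in either direction, with a median of -0.07 (log2) against 0.09 over all measured T cell genes. Foxo1, a transcription factor upstream of S1pr1, stood at 0.74 (0.673 to 0.813). Cd69, whose protein pulls S1PR1 off the cell surface, was 137, 133, 234 and 103 CPM in T cells. It was called higher at 24 h (1.71, 1.62 to 1.81). These are RNA levels, and a link of Cd69 to S1PR1 at the cell surface or to S1pr1 RNA was not tested. Gpr183, an oxysterol receptor that positions lymphocytes, was 0.576 (0.502 to 0.66) of control in T cells at 24 h and 0.413 (0.343 to 0.496) in B cells at 12 h. In NK cells Foxo1 (21.1, 34.2, 21.3 and 38.5 CPM) was higher at 12 and 96 h.

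Of 18 genes of receptor signalling and desensitisation, 15 have a row and 10 to 12 reached the minima. In T cells 0 of 10 were called at 12 h (median 0.0), and at 24 h 1 was, Rgs1, which dampens chemokine receptor signals (471 against 280 CPM, 1.68, 1.62 to 1.75). In nonclassical monocytes Rgs1 was 169, 632, 944 and 265 CPM, with ratios of 3.73 (3.55 to 3.93), 5.58 (5.32 to 5.85) and 1.56 (1.46 to 1.67). In classical monocytes at 24 h 3 of 12 were higher, Grk5 (2.05, 1.39 to 3.15), Rgs1 (2.04, 1.53 to 2.77) and Rgs2 (1.59, 1.34 to 1.91), and 1 was lower, Rgs14 (0.633, 0.519 to 0.775).

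Ligands of the receptors were fixed as 21 genes, of which 14 have a row. In T cells Ccl5, a ligand of CCR1, was 247, 1740, 279 and 527 CPM, 7.04-fold (6.81 to 7.29) higher at 12 h, and Ccl4 2.55-fold (2.24 to 2.91). Ccl5 is among the cytotoxic markers that define the T cell subset above. In the classical gate Cxcl2, a CXCR2 ligand, was 26.1, 82.1, 264 and 12.6 CPM, 10.1-fold (7.97 to 13) higher in the 24 h library and 0.484 (0.339 to 0.691) of control in the 96 h library. Cxcl2 is a leading gene of cluster 2. Ccl2, the ligand of the receptor that was not analysed, was 31.0, 2.09, 2.6 and 6.32 CPM in the same cells, and Ccl3, a CCR1 ligand, 88.5, 28.2, 196 and 55.9 CPM.

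The genes whose levels ran most like each receptor over the 20 sums of lineage and library are given as a description. These sums share libraries and lineages, and Pearson's r was taken on log2(CPM + 1) among 6220 genes. Ccr1 ran closest with Hp (r = 0.959), Vcan (0.94) and Cfd (0.939), of which Hp and Vcan are gate markers of classical monocytes. Cx3cr1 ran with Ctsf (0.966), Sec14l1 (0.966) and Rras (0.956), and Cxcr3 with Isyna1 (0.984), Dnajc1 (0.977) and Comtd1 (0.976). For Cxcr4 these were Ring1 (0.937), Rsbn1 (0.933) and Zcchc7 (0.926), and for S1pr1 Rps23 (0.963), Il27ra (0.963) and Jakmip1 (0.962). The receptors below the minimum ran with Dpp4 (0.975) for Ccr7, Pax5 (0.982), a B cell gate marker, for Cxcr5, and Dgat2 (0.865) for Cxcr2.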

How the data were processed

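The 4 libraries of blood mononuclear cells, 1 for each time, were assigned to groups from their labels. The deposited matrices hold UMI counts per gene and cell, without normalization. Cell Ranger, Seurat and mm10 are named per the submitters' processing notes, without a version or a role. The receptors and gene lists were chosen with earlier results of these data known.

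Of all cells, those under 200 genes or above 10% mitochondrial UMIs were dropped, and doublets called by Scrublet per library in scanpy 1.11.5 (5.55, 5.17, 3.88 and 4.35% of them) were removed. A cell was gated by distinct fixed markers detected: at least 3 for T, B, dendritic and neutrophil cells, 5 for NK cells, which had fewer T markers than the T gate, and 4 for monocytes. Neutrophils met no other gate, and cells of 2 lineages were left out (1.04 to 1.82%). Classical monocytes had at least 3 more classical than nonclassical markers, nonclassical monocytes at least 1 fewer. Cd4+ T cells had Cd4 and no Cd8a or Cd8b, and Cd8+ T cells the reverse. These minima were set after marker detection was seen, and S100a8 and S100a9, detected in 68.3 to 87.5% of used cells at 12 and 24 h, and Lyz2, in 79.0 to 98.4% of cells of each library, were kept out of the gates. A cell at its gate's minimum was as common as 34.5% of gated cells for B cells in the control library. Leiden clusters (resolution 1.0, 15 neighbours, 30 components, 2000 variable genes) were an alternative, made without the receptors. At some times most cells of a class lay in a cluster with more markers of another class than of its own among its 10 leading genes by fold. The values of the class at that time are then a description only, and counts of pairs are also given without it.

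UMIs were summed per lineage and library, from 2175459 (NK, control) to 33382887 (T, 96 h), and scaled to CPM. Levels have exact Poisson, shares exact binomial (Clopper-Pearson) and ratios exact conditional binomial intervals at 95%. Counts of 0 were set to 3 counts per library for ratios. Lineages needed 50 cells. Ratio calls were checked on simulated counts. Every receptor was described in every lineage. From each list, the genes named were those past the minima with the largest or smallest ratio in a lineage and time, with, chosen after their values were seen, Foxo1 in T cells, and Ccl3, Rgs1 and Rgs2 in classical monocytes. Some genes of the lists are not reported here. For each receptor up to 3 genes with the highest correlation were named. Alternatives changed the filters, gates, scaling, minima and fold.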

Additional observations from a re-analysis of the deposited data

How the results depend on the processing

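No measured ratio called higher or lower reversed under any alternative, while counts of called pairs moved with the minima and filters. At 12 h, where 3 pairs were higher and 2 lower, at most 5% mitochondrial UMIs gave 1 higher, Leiden clusters 5 higher and 4 lower, no CPM minimum 11 and 5, and at least 50 CPM 1 higher. At 24 h, with 2 higher and 2 lower, no mitochondrial filter gave 1 higher, at most 5% mitochondrial UMIs 1, a mean over cells 0, no CPM minimum 7 higher and 6 lower, at least 50 CPM 1 higher, a 2-fold threshold 0 higher and 0 lower, and Leiden clusters 4 lower. At 96 h, with 1 higher and 0 lower, at most 5% mitochondrial UMIs gave 0 higher, 1 more marker in every gate 2, Leiden clusters 3, at least 50 CPM 0, and no CPM minimum 5 higher and 2 lower. Leaving out cells with 2 or more neutrophil markers, chosen after seeing the data, gave 2 higher at 96 h, because Cxcr4 in classical monocytes moved from 1.46 to 1.5. Leaving out clusters led by markers of another class, also chosen after seeing the data, gave 1 higher at 24 h, because Ccr1 in classical monocytes moved from 1.5 to 1.46, and 4 higher at 12 h. It moved Cxcr4 at 12 h from 0.691 to 1.15 in the classical gate, which then held 80 cells. With at most 5% mitochondrial UMIs only 13 of 34 ratios could be computed, and 11 of them lay outside the counting interval of the main value. S1pr1 and Cxcr4 in T cells at 12 h ranged from 0.388 to 0.51 and from 0.405 to 0.49 over the alternatives. No paired analysis was possible because each group is 1 library. Depth limits Ccr7, Cxcr2, Cxcr5 and Cx3cr1 outside nonclassical monocytes, which stayed under 20 CPM in the 5 lineages.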
